A study of Mus musculus with 6 samples.

Results

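The type I interferon receptor and the signalling chain behind it were followed through 9 genes: the receptor chains Ifnar1 and Ifnar2, the kinases Jak1 and Tyk2, the transcription factor Stat2, and the interferon regulatory factors Irf1, Irf3, Irf7 and Irf9. The genes were listed by name for their place in the pathway, at a time when earlier results of these data were known. They are 9 of the 55471 genes in the deposited count table, and all 9 had enough counts to be among the 13044 genes tested. RNA was sequenced from cultured cells of a mouse undifferentiated pleomorphic sarcoma (UPS), a soft-tissue tumour, labelled as metastatic cells and grown in serum-containing medium. The 3 control libraries carried the genotype label WT and the 3 others the label Setd1a Knock Out; Setd1a encodes a histone methyltransferase that marks active promoters. The sample titles add the tag AAV2 to every control and a numeric tag to every knockout, and since the labels do not say what the tags stand for, whatever they mark cannot be told apart from the knockout. The labels give no treatment with interferon, and do not say whether the knockout cells were 1 clone or a pool. They also do not say whether replicates were separate cultures, so the tests weigh differences against a spread between libraries that may be technical only.

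Type I interferons bind a receptor made of the Ifnar1 and Ifnar2 chains. Tyk2 is bound to the Ifnar1 chain and Jak1 to the Ifnar2 chain, and both kinases phosphorylate STAT proteins after the receptor is engaged. Stat2 then enters the nucleus with a partner STAT and the DNA-binding protein Irf9, and this complex switches on genes that carry an interferon-stimulated response element. Irf3 acts upstream, where it is activated by sensors of foreign nucleic acid and starts the transcription of interferon genes. Irf7 amplifies that step and, like Stat2, Irf9 and Irf1, is itself encoded by a gene that interferon induces in many cell types.

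Library totals lay between 17749533 and 18272622 counts, and levels are given as CPM (read counts divided by library size after TMM scaling), where 1 CPM stood for about 18 reads in a library. The Setd1a transcript was at 71.0, 75.3 and 73.5 CPM in control replicates 1, 2 and 3 and at 53.2, 68.7 and 56.3 CPM in the knockout replicates. All knockout values were under all control values, with replicate 1 lowest, and the transcript was still present in each knockout library. Other gene models share 52.3% of its exonic bases and had 2 counts in all libraries together, so reads in the shared exons may not have been counted and the level is uncertain. The difference did not pass the test, with a log2 change of -0.30 ± 0.12 (SE, adjusted p = 0.426 in edgeR's quasi-likelihood test, and 0.0913 with the replicate number as a block). All 10 mesenchymal markers were among the tested genes, and 9 of them had a change below 0. Of all 13044 tested genes, 6543 had a change above 0. The sum of the 10 markers lay between 8235 and 8514 CPM in the controls. It was at 8197 CPM in knockout replicate 1, and at 7135 and 6911 CPM in knockout replicates 2 and 3. None of the 10 was called with or without the block, beside 0.851% of all tested genes called lower with it and 0% without. With the block and pair 1 left out, 2 were called lower, beside 1.58% of all tested genes. The 6 epithelial markers summed to 52.9 to 91.4 CPM in the controls and 50.1 to 95.6 CPM in the knockouts. With the block 1 of the 4 tested was called higher, beside 1.43% of all tested genes. The joint pattern of a lower value in pair 1 and higher values in pairs 2 and 3 was held by 2 of the 4, beside 9.75% of all tested genes. Of 11 myeloid markers 9 stayed under 1 CPM in every library, among them Adgre1, Tyrobp, C1qa and C1qb with no count at all, and all 9 lymphocyte markers did so too. The summed myeloid markers lay between 7.64 and 9.08 CPM in the controls and between 8.48 and 15.2 CPM in the knockouts, most of it the lysosomal gene Cd68; the part of these marker levels in the results was not tested.

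None of the 9 genes passed the test between knockout and control libraries (edgeR's quasi-likelihood test, adjusted p under 0.05), in a comparison where 0% of all tested genes were called in either direction. Before adjustment, p was under 0.05 for Irf7, which was higher, and for Irf3, which was lower, 1 gene each of the 9; among all tested genes the shares were 5.5% higher and 4.51% lower. limma-voom called 0 of the 9 and 0% of all tested genes, and DESeq2 called 0 of the 9 but 0.713% of all tested genes higher and 0.307% lower. Without the filter on low counts 0 of the 9 were called, beside 0.246% of genes higher and 0.0476% lower, and without knockout replicate 1 also 0 of the 9, beside 0.227% higher and 0.00758% lower. With the replicate number as a block, so that libraries of the same number were compared, 0 of the 9 were called either, although 1.43% of all tested genes were called higher and 0.851% lower. Before adjustment the blocked test gave p under 0.05 for Jak1, Irf1 and Irf7, all higher, and for Irf3, lower, beside 9.94% and 9.62% of all tested genes. All changes given below are log2 changes of the edgeR test without the block, with standard error and adjusted p, unless another test is named.

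The 9 genes fell into different patterns over the 3 pairs of same-numbered libraries. Jak1 and Irf1 were higher in the knockout in all 3 pairs, as were 19.9% of all tested genes. Ifnar1 and Irf3 were lower in all 3 pairs, as were 21.6% of all tested genes. Stat2, Irf7 and Irf9 were lower in pair 1 and higher in pairs 2 and 3, a pattern held by 9.75% of all tested genes. Ifnar2 and Tyk2 were lower in pairs 1 and 3 and higher in pair 2. Jak1 and Irf1 were also the 2 genes whose groups did not overlap, with the knockout above; 7.49% of all tested genes had that property, and 0 of the 9 lay wholly below the controls, against 7.77% of all tested genes.

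**Figure D1:**
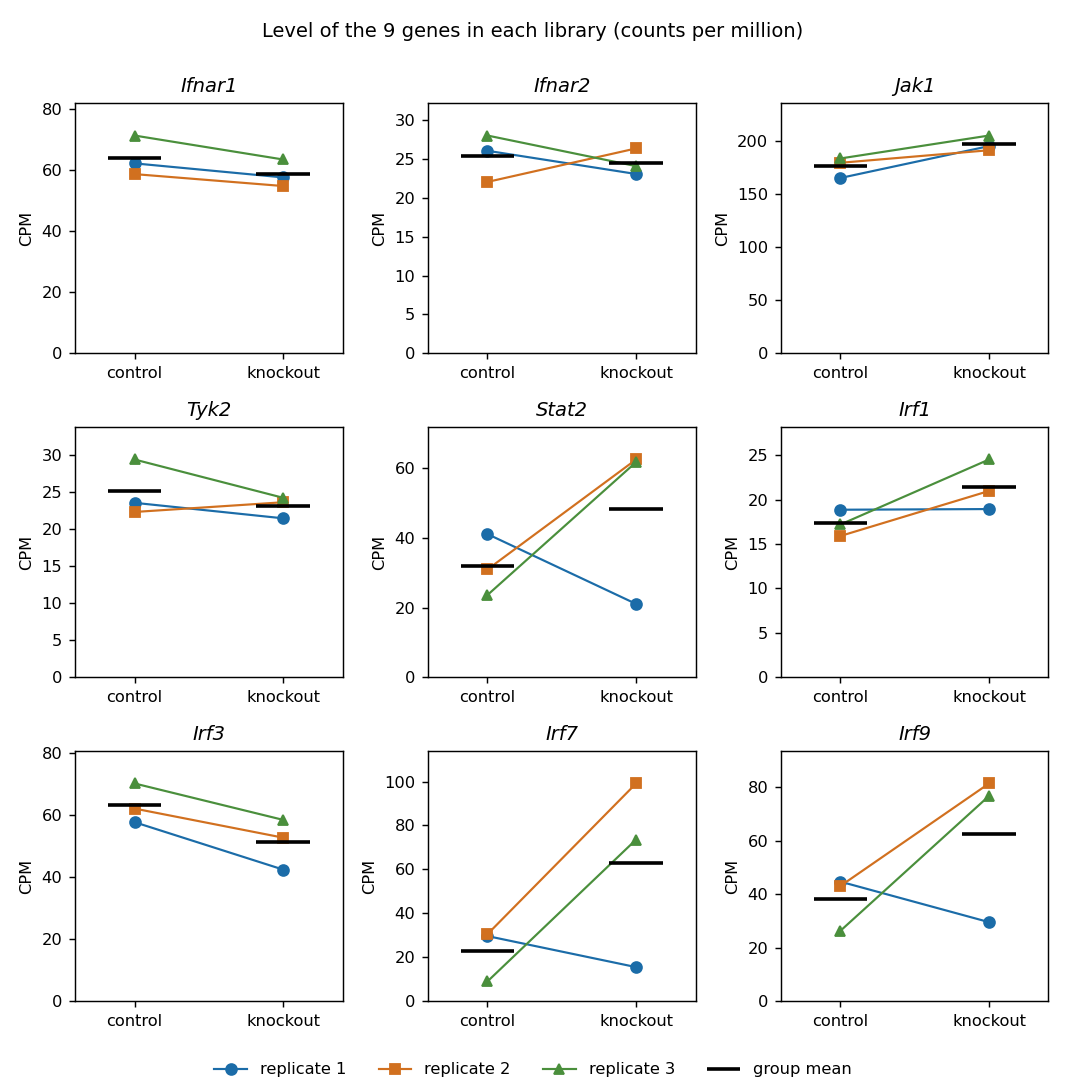
Level of each gene in CPM (vertical axes from 0) in control and knockout libraries, with a line joining libraries of the same replicate number and a black bar at each group mean. The lines of Stat2, Irf7 and Irf9 go down in replicate 1 and up in replicates 2 and 3, while those of Jak1 stay between 165 and 205 CPM.

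Transcripts of the interferons themselves were close to absent. Of 21 genes for type I, II and III interferons, 17 had no count in any library and 0 had enough counts to be tested. All 21 together had 2 counts in the 3 controls and 6 counts in the 3 knockouts. Ifnb1, the gene for interferon beta, had 0 counts in the controls, where 3 counts over the group would be 0.0552 CPM, and 1, 1 and 2 counts in knockout replicates 1, 2 and 3. Ifnab had 1 count in each group and Ifne 1 count in the controls. At this depth no difference in any interferon transcript was detectable; intervals and floors cover counting error only.

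Neither receptor chain passed the test between the groups. Ifnar1 (ENSMUSG00000022967, chromosome 16, 91485238 to 91507441 on GRCm38, plus strand) was at 62.1, 58.6 and 71.2 CPM in control replicates 1, 2 and 3 and at 57.5, 54.7 and 63.3 CPM in the knockouts. Each knockout library lay below its own control, but the groups overlapped, since knockout replicate 3 exceeded control replicates 1 and 2. The log2 change was -0.13 ± 0.12 (SE, adjusted p = 0.822; adjusted p = 0.44 with the block). Ifnar2 (ENSMUSG00000022971, chromosome 16, 91372783 to 91405589, plus strand) lies on the same chromosome and was at 26.1, 22.1 and 28.0 CPM in control libraries and 23.1, 26.4 and 24.1 CPM in knockout libraries. Its change was -0.05 ± 0.13 (SE, adjusted p = 0.961; adjusted p = 0.88 with the block), and the sign turned in 3 of 15 alternative analyses. Of its exonic bases 9.46% are shared with the gene model Gm21970, which had no counts, so reads there may have been left out.

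Of the kinases, Jak1 had the higher level per kilobase of exon in each library, 5.92 to 8.63 times that of Tyk2. Jak1 (ENSMUSG00000028530, chromosome 4, 101152367 to 101265282, minus strand) was at 165, 179 and 183 CPM in control libraries and 195, 191 and 205 CPM in knockout libraries. All knockout values exceeded all control values; p was 0.1 in an exact permutation test (two-sided), which cannot go lower with 3 against 3. The difference was small, a log2 change of 0.16 ± 0.10 (SE, adjusted p = 0.646; adjusted p = 0.245 with the block). Its spread within groups, an SD of 0.0675 on the log2 scale, was in the lowest 4.57% of all tested genes. Tyk2 (ENSMUSG00000032175, chromosome 9, 21104068 to 21131243, minus strand) was at 23.6, 22.3 and 29.4 CPM in control libraries and 21.5, 23.6 and 24.2 CPM in knockout libraries. The groups of Tyk2 overlapped, and its change of -0.12 ± 0.14 (SE, adjusted p = 0.887; adjusted p = 0.634 with the block) turned to 0.01 without control replicate 3, the library with its highest level.

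Stat2, Irf9 and Irf7 spread over the libraries far more than the receptor and kinase genes. Stat2 (ENSMUSG00000040033, chromosome 10, 128270559 to 128292849, plus strand) was at 41.1, 30.9 and 23.6 CPM in control libraries and 21.04, 62.4 and 61.7 CPM in knockout libraries. Knockout replicates 2 and 3 held the highest levels and knockout replicate 1 the lowest of all 6 libraries. Irf9 (ENSMUSG00000002325, chromosome 14, 55603571 to 55610030, plus strand), the DNA-binding part of the Stat2 complex, was at 44.7, 43.1 and 26.3 CPM in control libraries and 29.6, 81.4 and 76.8 CPM in knockout libraries. Again knockout replicates 2 and 3 were the highest, and knockout replicate 1 lay between control replicates 2 and 3. Irf7 (ENSMUSG00000025498, chromosome 7, 141262706 to 141266481, minus strand) was at 29.7, 30.5 and 9.02 CPM in control libraries and 15.5, 99.1 and 73.6 CPM in knockout libraries. Its highest library exceeded its lowest 10.99-fold, with a 3.38-fold range among the controls alone and 6.38-fold among the knockouts.

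The groups of all 3 genes overlapped, and none of the differences passed the test. Means were 31.9 ± 8.77 and 48.4 ± 23.7 CPM for Stat2, 38.05 ± 10.2 and 62.6 ± 28.7 CPM for Irf9, and 23.1 ± 12.2 and 62.7 ± 42.8 CPM for Irf7, in controls and knockouts (SD, n = 3). The log2 changes were 0.60 ± 0.35 for Stat2, 0.72 ± 0.33 for Irf9 and 1.44 ± 0.58 for Irf7 (SE, adjusted p = 0.631, 0.507 and 0.445 in edgeR's test). With the block they were 0.51 ± 0.35, 0.64 ± 0.31 and 1.30 ± 0.55 (SE, adjusted p = 0.478, 0.286 and 0.236). The SD within groups, 0.695 for Stat2, 0.652 for Irf9 and 1.23 for Irf7 on the log2 scale, lay at the 98.1, 97.6 and 99.9 percentile of all tested genes. Counting error was small beside that spread: the lowest count of the 3 genes, 161 reads of Irf7 in control replicate 3, carries a counting error of 7.88%.

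Within pairs, the ratios of the 3 genes shared their sign, which was negative in pair 1 and positive in pairs 2 and 3. The log2 ratio of knockout to control for Irf7 in pair 1 was -0.93 (95% exact binomial interval for counting error only, -1.15 to -0.72); in pair 2 it was 1.70 (1.56 to 1.84) and in pair 3 it reached 3.03 (2.79 to 3.27). For Stat2 the ratios were -0.96, 1.01 and 1.39 and for Irf9 -0.60, 0.92 and 1.54, each with an interval clear of 0. A ratio under -0.5 in pair 1 with ratios over 0.5 in pairs 2 and 3 was held by 0.805% of all tested genes; these limits were chosen after the values were seen. Knockout replicate 1 departed from the other knockouts in these 3 genes, but it was not the most distant knockout library over all genes. Between knockout replicates the chi-square per degree of freedom was 21.6 for 1 and 2, 32.8 for 1 and 3, and 40.0 for 2 and 3. Setd1a was at its lowest level of all 6 libraries in knockout replicate 1. Whether this bears on the pattern was not tested.

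**Figure D2:**
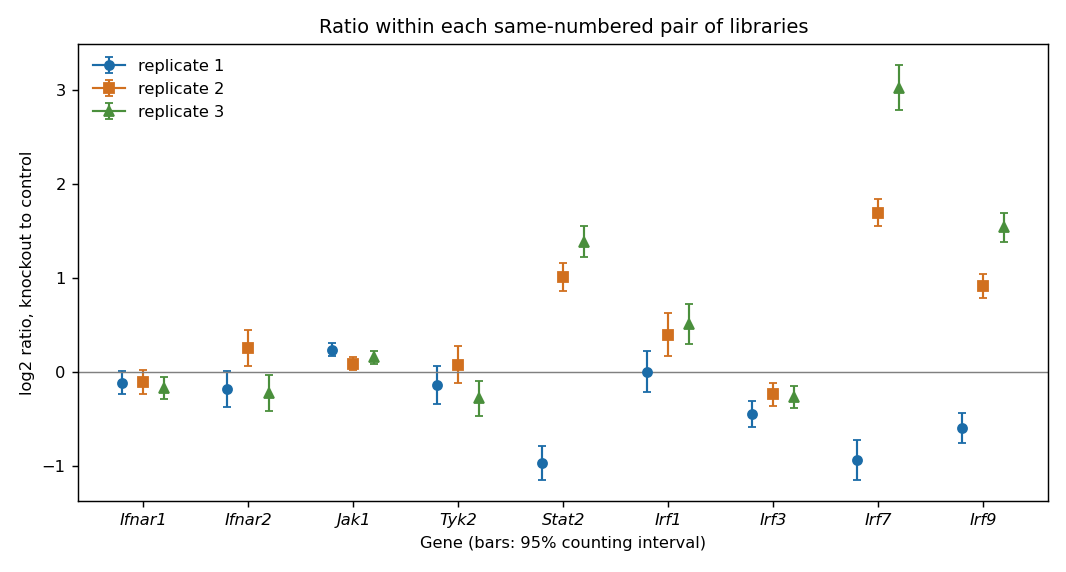
Log2 ratio of knockout to control CPM (vertical axis) within each same-numbered pair of libraries for the 9 genes; bars are 95% counting intervals, which leave out variation between cultures. Stat2, Irf7 and Irf9 lie below 0 in replicate 1 and above 0 in replicates 2 and 3, and Irf3 lies below 0 in all 3.

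Calls among the 9 genes depended on which pair was left out of the blocked test. Without pair 1, which leaves 2 libraries per group, 4 of the 9 were called higher (Stat2, Irf1, Irf7 and Irf9) and 0 lower, beside 3.87% of all tested genes called higher and 1.58% lower. In that test Irf7 was at 2.28 ± 0.16 on the log2 scale (SE, adjusted p = 3.67e-16). Irf9 was at 1.22 ± 0.13 and Stat2 at 1.196 ± 0.123 (SE, adjusted p = 1.36e-10 for each), and Irf1 at 0.46 ± 0.13 (SE, adjusted p = 0.0264). The log2 ratios of Irf7 in pairs 2 and 3 were 1.70 and 3.03, much further apart than its SE. The SE and p of this test therefore do not measure the variation between the 2 pairs. Without pair 2 and without pair 3, 0 of the 9 were called in either direction, beside 1.06% of all tested genes called higher and 0.41% lower without pair 2, and 0% without pair 3. Without pair 3 the log2 changes were 0.47 for Irf7, 0.18 for Irf9 and 0.04 for Stat2.

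The ratio of Stat2 to Irf9 varied less over the libraries than either gene did. Per kilobase of exon, the ratio of Stat2 to Irf9 was 0.835, 0.652 and 0.814 in the controls and 0.647, 0.697 and 0.730 in the knockouts, a 1.29-fold range, although Stat2 itself ranged over 2.97-fold and Irf9 over 3.09-fold. The ratio of Ifnar1 to Ifnar2 lay between 1.16 and 1.49, a 1.28-fold range, and that of Jak1 to Tyk2 had a 1.46-fold range. Irf7 to Irf9 had a 3.55-fold range. How narrow such ratios are between other genes was not examined. Irf7 to Irf3 per kilobase, by contrast, ranged from 0.117 in control replicate 3 to 1.72 in knockout replicate 2.

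Promoter windows were searched for the letters of interferon-response motifs, and a match does not show that a site is used. RefSeq windows on GRCm38.p6, from 250 bases before to 50 bases after a transcript start, were found for all 9 genes. Both strands were searched for GAAANNGAAA, the core of the interferon-stimulated response element, and TTCNNNGAA, the gamma-activated site that STAT dimers bind. GAAANNGAAA was in 3.44% of all 32851 windows and TTCNNNGAA in 8.3%; counted by gene, 3.99% and 9.55% of 27025 genes had it in at least 1 window. Among the 9 genes the first motif was found in Stat2 alone, and the second in Irf1, Ifnar1 (TTCACGGAA, starting at position -5 from the RefSeq start) and Ifnar2 (TTCCTGGAA at -214). The windows of Stat2, Irf1 (the first of 2) and Irf7 are shown as 1 example of each motif, in genes that interferon induces, and as the promoter of the gene with the widest range of levels; capitals mark the motif matches, and the strand is that of the gene.
Stat2, chr10:128270248-128270547, plus strand: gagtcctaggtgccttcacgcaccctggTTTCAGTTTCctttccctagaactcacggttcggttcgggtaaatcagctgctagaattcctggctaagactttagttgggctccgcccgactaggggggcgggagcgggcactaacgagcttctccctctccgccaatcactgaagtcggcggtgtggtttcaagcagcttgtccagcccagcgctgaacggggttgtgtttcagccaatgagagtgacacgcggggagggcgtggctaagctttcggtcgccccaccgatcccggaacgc
Irf1, chr11:53769764-53770063, plus strand: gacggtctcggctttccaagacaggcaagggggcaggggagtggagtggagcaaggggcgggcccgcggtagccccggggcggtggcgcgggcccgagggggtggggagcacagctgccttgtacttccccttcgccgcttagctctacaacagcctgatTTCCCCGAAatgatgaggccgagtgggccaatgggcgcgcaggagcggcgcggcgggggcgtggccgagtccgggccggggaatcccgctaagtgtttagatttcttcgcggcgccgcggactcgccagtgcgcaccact
Irf7, chr7:141266375-141266674, minus strand: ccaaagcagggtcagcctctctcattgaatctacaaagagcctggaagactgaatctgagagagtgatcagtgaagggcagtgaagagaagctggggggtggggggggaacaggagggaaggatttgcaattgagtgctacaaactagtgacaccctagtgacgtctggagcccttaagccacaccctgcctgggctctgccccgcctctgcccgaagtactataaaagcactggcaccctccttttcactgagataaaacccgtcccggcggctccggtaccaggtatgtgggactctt
In Stat2 the capitals are the first motif read on the opposite strand, starting at position -222, and in Irf1 they are the second motif, at position -90. Neither set of letters is in the windows shown or searched for Irf7, Irf9, Irf3, Jak1 and Tyk2 or in the second window of Irf1, which says only that these letters are not there. For Irf9 the windows begin at 55603735 and 55604329, past the start of the gene model at 55603571, so the sequence around that start was not searched.

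Irf1 (ENSMUSG00000018899, chromosome 11, 53770014 to 53778374, plus strand), an early interferon-induced activator, had a narrower range. It was at 18.9, 15.9 and 17.2 CPM in control libraries and 18.9, 20.98 and 24.5 CPM in knockout libraries. The groups did not overlap, but control replicate 1 and knockout replicate 1 were level, with a log2 ratio of 0.01 and a counting interval of -0.21 to 0.23; pairs 2 and 3 had ratios of 0.40 and 0.51. Its change was 0.31 ± 0.14 (SE, adjusted p = 0.505; adjusted p = 0.208 with the block), with p = 0.1 in the exact permutation test.

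Irf3 (ENSMUSG00000003184, chromosome 7, 44997648 to 45002848, plus strand), which is present in cells before any stimulus, was the lower in the knockout library of each pair. It was at 57.6, 62.0 and 70.1 CPM in control libraries and 42.3, 52.6 and 58.3 CPM in knockout libraries. The groups overlapped only through knockout replicate 3, which was just above control replicate 1. Within pairs the log2 ratios were -0.44, -0.24 and -0.26, each with a counting interval below 0. The change was -0.31 ± 0.14 (SE, adjusted p = 0.498); with the block it was -0.31 ± 0.09 (SE, adjusted p = 0.0865), the smallest adjusted p among the 9 genes and still above the threshold. Antisense exons of Bcl2l12 cover 2.56% of its exonic bases, and the strand setting of the counting is not given.

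Levels can be compared between the genes only per length. Per kilobase of the union of annotated exons, the mean over the controls was 24.3 CPM for Jak1, 18.4 for Irf3, 10.8 for Ifnar1, 7.62 for Ifnar2, 7.06 for Irf9, 6.11 for Irf7, 5.38 for Stat2, 4.36 for Irf1 and 3.66 for Tyk2. Over all 6 libraries Jak1, at 22.8 to 28.4 CPM per kb, stood clear of Irf3, at 12.3 to 20.4; Irf3 lay just above Ifnar1, and Ifnar1, at 9.20 to 11.98, stood clear of Ifnar2, at 6.62 to 8.42. Irf9, Irf7 and Stat2 overlapped with their neighbours on both sides, so their places in the order are not resolved. Irf1 and Tyk2 had the lowest means over the controls and overlapped with each other and with Stat2 and Irf7, whose lowest libraries were at 3.55 and 2.39. With the longest transcript as the length, Irf1 ranked above Stat2 and Irf7. In the knockouts the mean of Irf7 was 16.6 CPM per kb, above that of Irf3 at 14.8, but with knockout replicate 1 at 4.11.

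**Figure D3:**
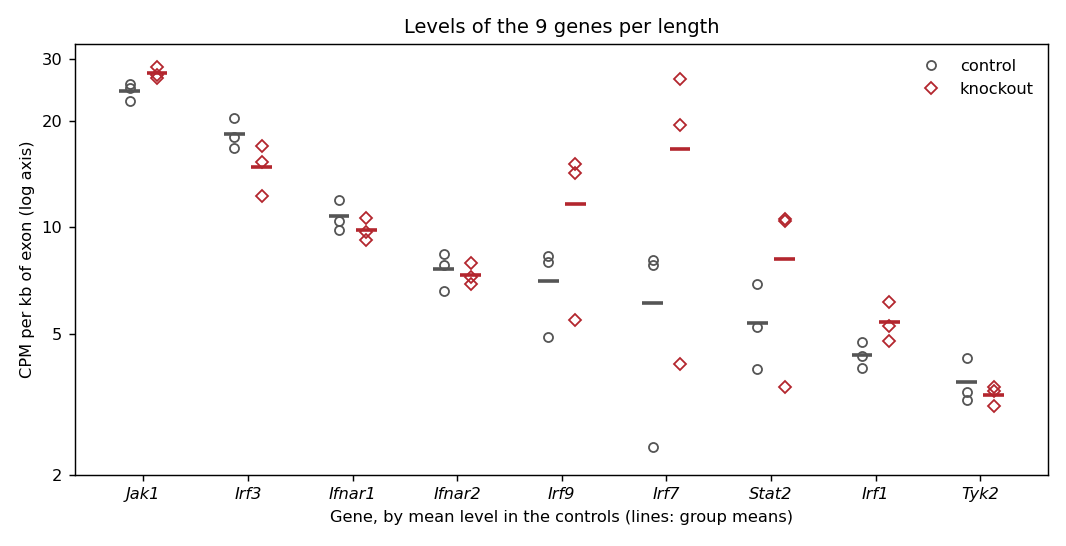
Level per kilobase of exon (CPM per kb, log axis) of the 9 genes, ordered by their mean in the controls; circles are the 3 control and diamonds the 3 knockout libraries, with a line at each group mean. Irf9, Irf7 and Stat2 have 2 knockout libraries above and 1 within or below the range of the controls, while Jak1 stays between 22.8 and 28.4.

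The genes most like each member across the 6 libraries were sought by the Pearson correlation of log2 CPM among 9660 protein-coding genes with a mean of at least 5 CPM. With so few libraries every member had a gene at 0.98 or more, so the values are a description without a test. Irf7 was closest to the interferon-induced gene Xaf1 (0.994), to Irf9 (0.990) and to Ddx58, which encodes the RNA sensor RIG-I (0.989). Irf9 was close to Usp18, an interferon-induced inhibitor of the receptor (0.994), and to Ddx58 (0.993). Stat2 was closest to Parp9, Oas3 and Parp10 (0.982, 0.981 and 0.981). Irf3 was closest to Ccdc71, Ssr4 and Irak1 (0.999, 0.999 and 0.993), and Jak1 to Man1c1, Cd47 and Homer3 (0.989, 0.984 and 0.980). Irf1 was closest to the interferon-induced gene Ifi209 (0.997), followed by Stard3 and Katnbl1 (0.996 and 0.994). Ifnar1 was closest to BC055324, Fbxo4 and Mrpl15 (0.996, 0.994 and 0.990), Ifnar2 to Zer1, Tagap and AI413582 (0.981, 0.977 and 0.953), and Tyk2 to Bad, Mid1ip1 and Pkmyt1 (0.990, 0.976 and 0.975).

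The other genes of the pathway were counted by lists of their roles. Over all tested genes 0% passed without the block, and with it 1.43% were called higher and 0.851% lower. At those shares, 0 genes passing does not set a short list apart. Of 5 tested genes for other interferon receptor chains and JAK kinases, 0 passed in either direction with or without the block; the median log2 change was 0.16, against 0.00 for all tested genes. Ifngr2, a chain of the interferon gamma receptor, averaged 86.8 ± 8.95 CPM in control libraries and 79.8 ± 7.81 CPM in knockout libraries (SD, n = 3). Jak2 averaged 26.8 ± 2.61 and 30.3 ± 3.20 CPM, and Ifngr1 18.32 ± 0.61 and 17.8 ± 1.07 CPM. Ifnlr1, the receptor of type III interferons, had no counts. Of 4 tested genes for other STAT proteins, 0 passed; Stat6 averaged 150 ± 13.3 and 144 ± 14.8 CPM, Stat3 96.4 ± 4.27 and 96.1 ± 13.01 CPM, and Stat5b 11.9 ± 2.35 and 13.5 ± 1.95 CPM. Of 6 tested genes of other IRFs and their binding proteins, 0 passed, with a median log2 change of 0.07. Irf2bp2, a corepressor bound by Irf2, averaged 67.6 ± 4.29 CPM in control libraries and 59.6 ± 12.6 CPM in knockout libraries (SD, n = 3), Irf2bp1 59.4 ± 9.14 and 54.2 ± 9.97 CPM, and Irf2bpl 44 ± 2.68 and 48.8 ± 6.77 CPM.

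Upstream and inhibitory genes had no calls in the test with all 6 libraries, with or without the block. The shares of all tested genes called were 0% without the block, and 1.43% higher and 0.851% lower with it. Of 13 adaptors and kinases that lead to Irf3 and Irf7, 0 passed with or without the block, and their median log2 ratio was 0.01, 0.00 and 0.05 in pairs 1, 2 and 3. Tmem173, which encodes the adaptor STING, averaged 65.2 ± 12.2 CPM in control libraries and 72.0 ± 19.0 CPM in knockout libraries (SD, n = 3), and the kinase adaptor Traf3 75.6 ± 8.62 and 73.9 ± 11.2 CPM. Irak1, a kinase of Toll-like receptor signalling, averaged 142 ± 7.97 and 127 ± 13.4 CPM. Of 20 inhibitors of interferon signalling, 0 passed. With the block and without pair 1, 2 of them were called higher, beside 3.87% of all tested genes. These were Usp18 and Isg15 (adjusted p = 1.19e-18 and 7.31e-18 in edgeR's test, which do not measure the variation between pairs). Both are also on the list of targets of Stat2 and Irf9 below, so the same calls are counted there again. Over the inhibitors the median log2 ratio in the pairs was -0.02, 0.01 and 0.04. The phosphatase gene Ptpn11 averaged 192 ± 27.1 and 184 ± 23.5 CPM, Sh2b3 150 ± 7.17 and 147 ± 9.88 CPM, and Socs5 136 ± 2.86 and 133 ± 11.4 CPM.

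Of 41 tested targets of the Stat2 and Irf9 complex, 39 had lower values in pair 1 and higher values in pairs 2 and 3, beside 9.75% of all tested genes; the exceptions, Oasl1 and Ifih1, were higher in all 3 pairs. Pair by pair, the targets had median log2 ratios of -0.81, 1.74 and 2.62, and all tested genes had medians of 0.00, 0.00 and -0.02. Without the block 0 targets passed the edgeR test, and 28 of 41 were higher with p under 0.05 before adjustment, beside 5.5% of all tested genes. With the block 2 of 41 passed, both higher, beside 1.43% of all tested genes. Oasl1, an interferon-induced gene of the oligoadenylate synthetase family, rose 3.14-fold in the blocked edgeR test (adjusted p = 0.0291). Ifih1 rose 2.80-fold (adjusted p = 0.0419); its product MDA5 senses viral RNA. Oasl1 was at 28.3, 18.4 and 19.7 CPM in control libraries and 39.2, 89.4 and 89.5 CPM in knockout libraries, and Ifih1 at 28.7, 18.9 and 13.6 and at 34.1, 75.3 and 63.1 CPM. In both genes all knockout values were above all control values, as in 7.49% of all tested genes, with knockout replicate 1 closest to the controls. Without pair 1 the blocked test called 41 of the 41 higher, where it called 3.87% of all tested genes higher. Without pair 2 it called 3 targets higher, beside 1.06% of all tested genes. Without pair 3 it called 0 targets and 0% of all tested genes. Interferon-induced genes were known to vary in these libraries when the list was written, so the list is not independent evidence of a direction.

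**Figure D4:**
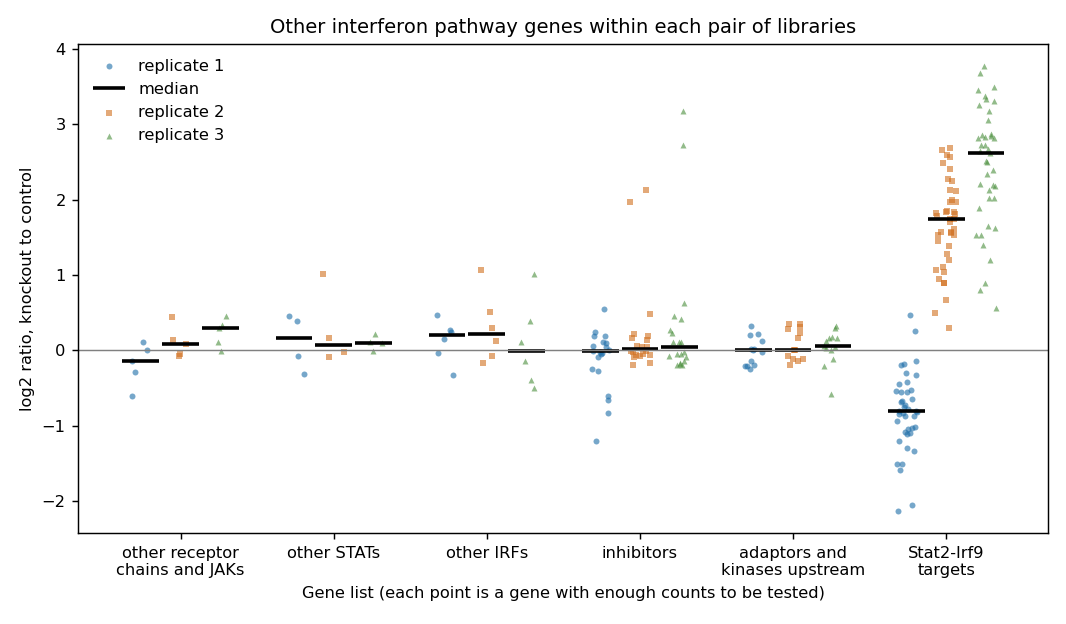
Log2 ratio of knockout to control CPM (vertical axis) of each tested gene of 6 pathway lists within the 3 same-numbered pairs, with a black bar at each median. Targets of Stat2 and Irf9 have medians of -0.81, 1.74 and 2.62, while the other lists stay between -0.14 and 0.29.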

How the data were processed

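RNA of 6 libraries was sequenced. The table the authors deposited holds raw read counts by Ensembl gene identifier, with no normalization. STAR, featureCounts, DESeq and mm10 are named per the submitters' processing notes; the sources used here do not give versions, annotation release, strand setting or the handling of multiply mapped reads. Groups and replicate numbers came from the sample titles. Of 55471 identifiers, 55230 matched GENCODE M21 (GRCm38). Promoter windows came from RefSeq.

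Counts were tested with edgeR 4.0.16 in R 4.3.3: TMM scaling, filtering by expression (at most 0.127% of the counts of a library removed), a two-sided quasi-likelihood test and Benjamini-Hochberg adjustment over 13044 genes at 0.05. DESeq2 1.42.0, limma-voom 3.58.1, other scalings, no filter, left-out libraries and pairs, and the replicate block were alternatives. Steps were tested on simulated data. The labels do not say that numbers pair libraries; deviations from the group means correlated at 0.15, 0.46 and 0.38 for equal numbers and between -0.45 and 0.05 otherwise, so all 3 exceeded the limit of 0.1 and values with the block are given for the 9 genes. Libraries of a group all differed beyond sampling noise (chi-square per degree of freedom 21.6 to 40.0).

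The members and lists were chosen with earlier results of these data known. All members were named; of each list, genes called in either fit (at most 6), otherwise the 3 with the highest mean CPM; for each member, the 3 most correlated protein-coding genes. Genes at 1 CPM have about 18 reads per library. 1 gene selected by this rule is not reported here.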

Additional observations from a re-analysis of the deposited data

How the results depend on the processing

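With 3 libraries per group and an overlap of groups for most genes, a missed threshold does not show that levels were equal. Over 15 alternatives the log2 changes of Ifnar1, Jak1, Stat2, Irf1, Irf3, Irf7 and Irf9 kept their direction. Leaving out single libraries gave -0.13 (without control replicate 2) to 0.026 (without control replicate 3) for Ifnar2 and -0.19 to 0.0099 for Tyk2 (without the same 2 libraries). Leaving out pairs with the replicate block gave Ifnar2 -0.18 to 0.030, with 0.017 without pair 1 and 0.030 without pair 3. Genes called higher and lower were 0 and 0 without the block, 187 and 111 with the replicate block, 93 and 40 with DESeq2, 62 and 12 without the low-count filter, and 0 and 0 with limma-voom, RLE scaling or library totals. Leaving out single libraries without the block gave 0 to 30 higher and 0 to 1 lower, the calls arising without knockout replicate 1. With the block, leaving out a pair gave 0 to 507 higher and 0 to 207 lower: 507 and 207 without pair 1, 140 and 54 without pair 2, 0 and 0 without pair 3. Members called higher ranged from 0 to 4, with 4 only in the block without pair 1. Targets of Stat2 and Irf9 called higher were 2 with the block, 1 with DESeq2 and 9 without the filter, and 0 to 11 without single libraries (11 without knockout replicate 1); with the block and a pair left out they were 0 to 41 (41 without pair 1, 3 without pair 2). The cause was not tested. The longest transcript in place of the exon union left Jak1, Irf3 and Ifnar1 first and Tyk2 last in the per-length order and changed the order between.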

Other observations

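The following genes of the fixed lists were picked after their values were seen. Irf8, an interferon regulatory factor best known from myeloid and B cells, was measured at 9.46, 13.01 and 18.33 CPM in control libraries and 11.2, 18.5 and 24.0 CPM in knockout libraries. Among markers of those cells Csf1r was at 0.111, 0.335 and 0.112 CPM in control libraries and 1.10, 1.28 and 0.22 CPM in knockout libraries, and Cd79a at 0.0553, 0.223 and 0.056 and at 0.165, 0.555 and 0.44 CPM. Cd68 ranged from 6.88 to 13.6 CPM over all libraries, and Ptprc did not exceed 0.278 CPM. The part of these cells in the level of Irf8 was not tested. For Irf8 each knockout library lay above its own control, as for 19.9% of all tested genes. The groups of Irf8 overlapped. Its log2 change was 0.40 ± 0.29 without the block (SE, adjusted p = 0.739 in edgeR's test) and 0.39 ± 0.11 with it (SE, adjusted p = 0.0947). Irf5, which acts downstream of Toll-like receptors, was at 1.72, 2.18 and 2.30 CPM in control libraries and 2.37, 4.55 and 4.62 CPM in knockout libraries. The groups of Irf5 did not overlap, with the knockout above, as in 7.49% of all tested genes. Its change was 0.90 ± 0.29 without the block (SE, adjusted p = 0.352 in edgeR's test) and 0.87 ± 0.20 with it (SE, adjusted p = 0.0585). Antisense exons of Tnpo3 cover 14.2% of the exonic bases of Irf5, so its counts are uncertain without the strand setting. Without pair 1 the blocked test called both Irf5 and Irf8 higher (adjusted p = 0.00297 and 0.0325), beside 3.87% of all tested genes.

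Traf6, a ubiquitin ligase that relays Toll-like receptor signals to Irf7, averaged 30.4 ± 1.64 CPM in control libraries and 37.1 ± 3.25 CPM in knockout libraries (SD, n = 3). Its groups did not overlap, as in 7.49% of all tested genes with the knockout above. In edgeR's test adjusted p was 0.451 without the block and 0.137 with it. Among the inhibitors, Usp18 was at 21.4, 15.1 and 6.56 CPM in control libraries and 9.25, 66.1 and 59.2 CPM in knockout libraries, and Isg15, whose product stabilises Usp18 in human cells, at 19.6, 13.1 and 7.73 and at 11.01, 51.1 and 51.1 CPM. Both genes were lower in pair 1 and higher in pairs 2 and 3, as were Socs2 and Cish. The pattern was held by 4 of the 20 inhibitors, beside 9.75% of all tested genes. The log2 ratios in pairs 1, 2 and 3 were -0.61, 0.05 and 0.45 for Socs2 and -0.66, 0.48 and 0.62 for Cish. Socs1 and Socs3, the suppressors of JAK activity, stayed between 14.5 and 18.2 CPM and between 15.7 and 21.7 CPM over all libraries. The SD within groups had a median percentile of 99.5 among all tested genes for the 41 targets of Stat2 and Irf9. The median was 33.6 for the 5 other receptor chains and JAK kinases and 44.2 for the adaptors and kinases upstream. For the inhibitors it was 49.5, for the other STAT genes 51.5 and for the other IRF genes 65.3.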
